A study of Mus musculus with 6 samples.

Results

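Hox genes encode homeodomain transcription factors, which bind DNA through a conserved domain and give cells along the body axes their positional identity. In mammals they lie in 4 clusters on separate chromosomes, Hoxa, Hoxb, Hoxc and Hoxd, and genes of the same number in different clusters are paralogues. Low numbers are used towards the head and high numbers towards the tail and the ends of the limbs. Trithorax proteins keep Hox genes active and Polycomb proteins keep them silent, so that a cell line can carry the pattern of the place it came from. The members described here are the genes whose symbol, read from the array's RefSeq accessions, is Hoxa, Hoxb, Hoxc or Hoxd followed by a number; antisense genes were left out. All 39 such genes, of 20659 named genes, had at least 1 probe, with 43 probes in all and 11 Hoxa, 10 Hoxb, 9 Hoxc and 9 Hoxd genes.

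The cells were C2C12, a myoblast line derived from mouse leg muscle. An siRNA directed at lncMGPF, a long noncoding RNA, had been given to 3 samples (si-lncMGPF), and a control siRNA to 3 (si-NC). All 6 had been induced to differentiate for 2 days, and 1-colour expression arrays measured their total RNA. All samples come from 1 line. Nothing in the labels tells if replicates were cultured apart, and the spread behind each p-value may therefore be technical. No probe carried the name lncMGPF, so the knockdown itself was not checked here.

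Arrays with the same scan identifier in the file headers are taken here to share a slide, which the labels do not name. By this reading, slide 2 held si-lncMGPF replicates 2 and 3, while si-lncMGPF replicate 1 shared slide 1 with the 3 si-NC arrays. On slide 2, 56.9% and 57.3% of probes were well above background, the scanner software's flag for a measured signal, against 64.1% to 65.3% on slide 1. Net signals of negative control spots were 37.3 and 42.5 intensity units on slide 2 and 20.1 to 21.8 on slide 1, and slide and knockdown are partly confounded. Slide values are therefore given for the medians and for members whose arrays differed by slide. Of 10 skeletal muscle markers, 10 were well above background on all 6 arrays. Among markers of other cell types this held for 0 of 4 epithelial, 0 of 2 hepatocyte, 1 of 3 adipocyte, 2 of 3 chondrocyte, 2 of 4 endothelial, 3 of 5 leukocyte and 3 of 4 neuronal genes.

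Sequences upstream of 2 pairs of paralogues are shown first, because they stand for the main contrast in these cells: the Hoxa member was measured on all 6 arrays and its Hoxd paralogue on none. Each run gives the 250 bases before the RefSeq start on the gene's strand, in build GRCm38.p6, with CG dinucleotides in capitals. Hoxa3 lies on the minus strand (chr6:52213068-52213317), Hoxd3 on the plus strand (chr2:74711743-74711992), Hoxa9 on the minus strand (chr6:52227371-52227620) and Hoxd9 on the plus strand (chr2:74697513-74697762).
Hoxa3: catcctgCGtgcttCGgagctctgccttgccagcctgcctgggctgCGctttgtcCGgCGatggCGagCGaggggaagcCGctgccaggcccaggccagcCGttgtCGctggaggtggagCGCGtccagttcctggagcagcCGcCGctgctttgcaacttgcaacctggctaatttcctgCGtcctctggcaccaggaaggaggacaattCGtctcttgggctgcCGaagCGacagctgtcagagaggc
Hoxd3: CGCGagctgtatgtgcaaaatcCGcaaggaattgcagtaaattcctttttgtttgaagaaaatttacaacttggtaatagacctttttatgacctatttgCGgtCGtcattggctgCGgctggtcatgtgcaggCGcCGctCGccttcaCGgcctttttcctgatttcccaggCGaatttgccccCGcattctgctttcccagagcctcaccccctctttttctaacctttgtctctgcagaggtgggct
Hoxa9: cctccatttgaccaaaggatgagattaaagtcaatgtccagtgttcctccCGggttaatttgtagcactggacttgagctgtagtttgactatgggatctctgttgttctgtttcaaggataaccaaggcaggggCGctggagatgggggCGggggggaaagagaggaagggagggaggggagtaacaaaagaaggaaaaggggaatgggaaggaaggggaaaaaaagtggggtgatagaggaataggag
Hoxd9: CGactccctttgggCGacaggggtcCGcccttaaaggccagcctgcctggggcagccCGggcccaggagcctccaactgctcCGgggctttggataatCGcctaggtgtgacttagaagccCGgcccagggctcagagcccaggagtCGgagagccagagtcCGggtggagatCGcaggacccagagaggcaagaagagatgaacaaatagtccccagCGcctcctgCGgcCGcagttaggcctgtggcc

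These stretches held 18 CG dinucleotides for Hoxa3 and 12 for Hoxd3, and 3 for Hoxa9 and 13 for Hoxd9, so the measured paralogue had more in 1 pair and fewer in the other. RefSeq's table gave 24 such stretches for 22 Hox genes, with a median of 12.5 CG dinucleotides, against 6 over 32851 stretches of all genes. The median was 10.5 for the 10 stretches of members that could be tested and 12.5 for the 14 of members that could not. The first cover only 9 of the 25 tested members and the second 13 of the 14 others, with 10 stretches from Hoxd. Nothing is therefore read from the difference between these medians. TATAAA, read on both strands, was in 4 of the 24 Hox stretches and in 12.4% of all, and TGATNNAT, the form bound by Hox proteins with their Pbx partners, was in 4 of 24 and in 7.68% of all. Neither was in the 4 stretches printed above. The myogenic E-box CANNTG was in 17 of 24, against 66.2% of all. All 3 motifs were read on both strands, and matches of different motifs were allowed to overlap. A match is a description of these letters and not a binding site.

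Differentiating C2C12 cells carried signal from 3 of the 4 clusters. In si-lncMGPF cells 20 of the 39 Hox genes (51.3%) were well above background on every array, and in si-NC cells 25 (64.1%). Over all named genes these shares were 62.7% and 69.0%. By cluster, the members measured on every array of a group were 8 of 11 Hoxa, 5 of 10 Hoxb and 7 of 9 Hoxc genes in si-lncMGPF, against 9, 8 and 8 in si-NC. On all 6 arrays 20 of 39 were measured, where 62.6% of all named genes were, and 11 were above background on no array, where 25.2% of all named genes were. None of the 9 Hoxd genes was well above background on any array of either group. In bulk RNA, fewer cells with a transcript and less of it per cell cannot be told apart.

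**Figure D1:**
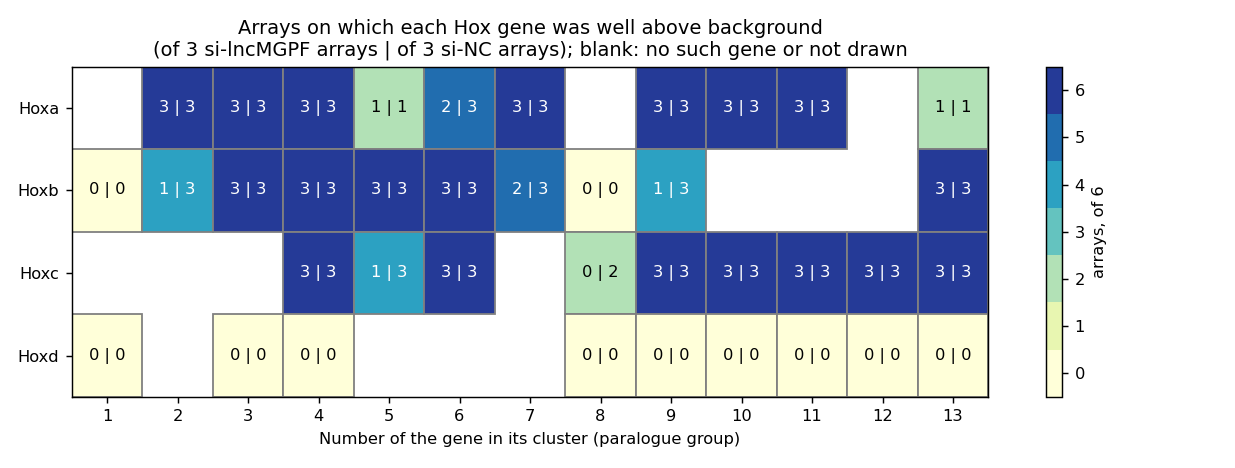
Each box is a Hox gene (38 of the 39 are drawn), placed by cluster (rows) and by its number in the cluster (columns). The numbers are the si-lncMGPF arrays and the si-NC arrays, of 3 each, on which any of its probes was well above background; the Hoxd row is at 0 throughout.

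The Hoxd genes act in the trunk and, from Hoxd9 to Hoxd13, in the growing limb, where Hoxd13 shapes the digits. Their scaled log2 signals ran from -8.10 to -5.01 in si-lncMGPF and from -8.28 to -6.40 in si-NC, where 0 is the 75th percentile of an array. Hoxd3 and Hoxd12 had the same values to 2 decimals on each array (-7.88, -7.10 and -6.82 in si-lncMGPF, against -8.10, -7.99 and -7.86 in si-NC), which are at the floor and have no order. The lowest Hoxd value of an array was higher on slide 2 (-7.10 and -6.83, against -8.28 to -8.05 on slide 1). Hoxd4 read -8.002, -5.01 and -5.63 in si-lncMGPF, against -8.28, -8.16 and -8.05 in si-NC. It was high on both slide 2 arrays alone and above background on neither. By looser rules given under the processing, Hoxd1 would count as measured on every si-lncMGPF array and Hoxd11 on every si-NC array.

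The Hoxa, Hoxb and Hoxc clusters each had at least 1 member above background on fewer arrays than both its neighbours, although Hoxa6, Hoxb7 and Hoxb9 among these neighbours were themselves not measured on every si-lncMGPF array. Hoxc5, described below, was such a member, above background on 4 arrays where Hoxc4 and Hoxc6 were on 6. Hoxa5, which acts in lung and neck development, lies between Hoxa4 and Hoxa6 and was above background on 2 arrays, si-lncMGPF replicate 1 and si-NC replicate 2. Hoxb8, which is read between Hoxb7 and Hoxb9, was above background on 0 arrays, with -6.06, -5.43 and -5.76 in si-lncMGPF against -6.57, -6.02 and -6.08 in si-NC. Hoxc8, a thoracic gene between Hoxc6 and Hoxc9, was above background on si-NC replicates 1 and 2 and on 0 si-lncMGPF arrays. Hoxa5, Hoxb8 and Hoxc8 each have 1 probe, and whether the probe or the transcript was weak was not tested.

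The ends of the clusters differed. Hoxb1, a hindbrain gene with 8 to 10 usable spots an array, was above background on 0 arrays (-7.72, -7.08 and -6.68 in si-lncMGPF, against -8.02, -8.05 and -7.90 in si-NC). At the far end, Hoxb13, known from the prostate and tail, and Hoxc13, a hair and nail gene, were measured on all 6. Hoxa13, a gene of the hand and foot plate, was above background on si-lncMGPF replicate 1 and si-NC replicate 2 by 1 of its 2 probes, which read -5.75, -6.07 and -5.23 in si-lncMGPF against -7.24, -3.59 and -6.24 in si-NC. On that probe the si-NC arrays spread more widely (SD 1.88) than the si-lncMGPF arrays (SD 0.43). The other probe, above background on 0 arrays, read -6.46, -5.89 and -4.83 in si-lncMGPF against -7.43, -6.68 and -7.31 in si-NC. There the groups did not overlap and the si-lncMGPF arrays spread more widely (SD 0.83, against 0.40), but no value was well above background.

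Counted per array, 27, 22 and 20 Hox genes were above background in si-lncMGPF replicates 1, 2 and 3, against 26, 28 and 25 in si-NC. The groups overlapped, and the means of 23 and 26.3 gave p = 0.3 in an exact two-sided permutation test, which cannot go below 0.1 with 3 arrays a group. On slide 1 the si-lncMGPF array, with 27 genes, lay within the si-NC range, while both slide 2 arrays lay below it, as their shares of all probes did.

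A test was run where a probe of the gene was well above background on all arrays of si-lncMGPF or of si-NC, which left 25 members tested and 14 not. For 5 of the 25 (Hoxa6, Hoxb2, Hoxb7, Hoxb9 and Hoxc5) this held in si-NC alone, which favours a lower value in si-lncMGPF. Limma's test over all 24661 tested probes, with Benjamini-Hochberg adjustment, called 0 of the 25 Hox genes at an adjusted p below 0.05, the lowest being 0.19; it called 0.147% of the 14265 tested genes (21 genes), which splits into 0.0421% higher and 0.105% lower in si-lncMGPF. Before adjustment, 7 Hox genes had p below 0.05. Of these, 2 were higher (Hoxa9 and Hoxc12) and 5 lower (Hoxa7, Hoxb3, Hoxb9, Hoxc5 and Hoxc11) in si-lncMGPF, where 14.2% of all tested genes did, 6.04% higher and 8.14% lower. The arrays of the groups did not overlap for 9 members, 2 higher and 7 lower; over all tested genes this share was 22.4%, with 9.7% higher and 12.7% lower. The log2 change was positive for 9 members and negative for 16, where 54.0% of all tested genes were positive. The 95% interval of the change lay within 2-fold either way for 23 members, the exceptions being Hoxb9 and Hoxc5. The 5 members tested through si-NC alone were all negative, and 3 of them had no overlap. Among the 20 measured on all 6 arrays, 5 had an unadjusted p below 0.05 (limma), 2 higher and 3 lower. Of these 20, 6 had no overlap, 2 higher and 4 lower, and 9 changes were positive and 11 negative. Nothing is therefore read from the larger counts of lower members.

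The median log2 change over the 25 members was -0.09, against 0.02 over all tested genes. On slide 1 it was -0.12 (all genes -0.07), and on slide 2, set against the same si-NC arrays, -0.04 (all genes 0.06). For the 20 members measured on all 6 arrays the median was -0.01. By cluster it was 0.03 for 9 Hoxa genes (-0.09 on slide 1 and 0.14 on slide 2), -0.18 for 8 Hoxb genes (-0.25 and -0.18) and -0.08 for 8 Hoxc genes (-0.14 and -0.02). By position it was -0.0027 for 5 members of groups 1 to 3, -0.12 for 10 of groups 4 to 8 and -0.03 for 10 of groups 9 to 13. These medians by cluster and position include Hoxa6, Hoxb2, Hoxb7, Hoxb9 and Hoxc5, tested through si-NC alone, which favours a negative change. All 5 were negative, so clusters and positions are not ranked by these medians.

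**Figure D2:**
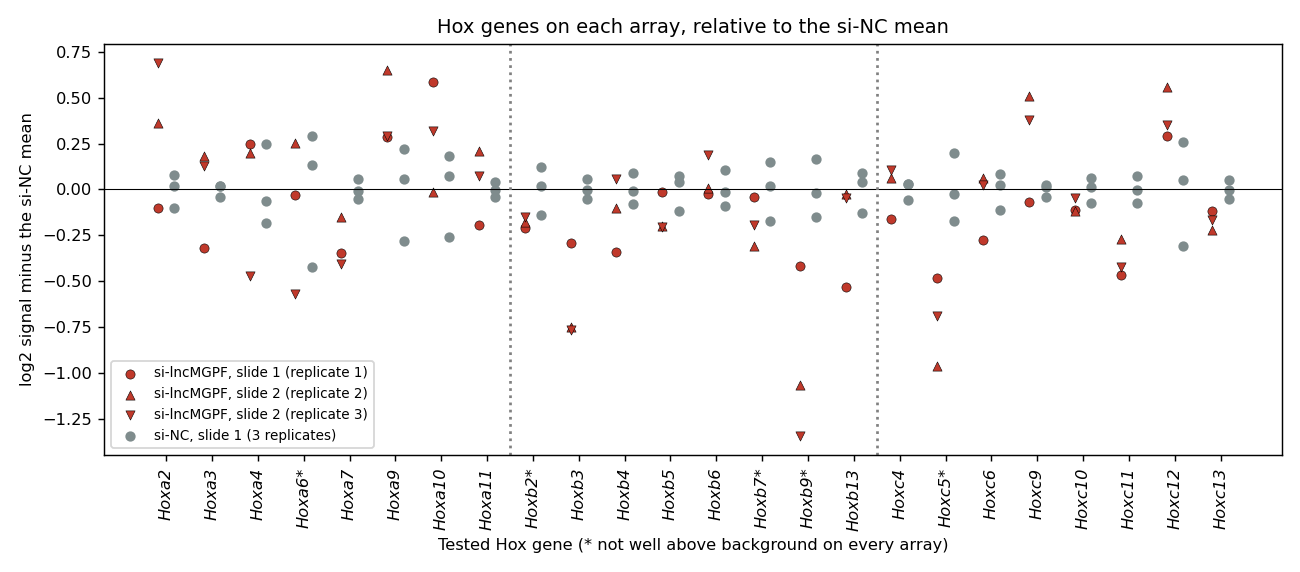
For 24 of the 25 tested Hox genes (x axis), points give the log2 signal of an array minus the gene's si-NC mean (y axis), si-lncMGPF to the left in red and si-NC to the right in grey, with marks for slide. Hoxb3, Hoxb9 and Hoxc5, among others, have all si-lncMGPF arrays below all si-NC arrays, and for these genes the slide 2 arrays are farthest away. For Hoxb9 and Hoxc5 the slide 2 arrays were not well above background. On the other probe of Hoxb3, which is not drawn, the slide 1 array was farthest.

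In the Hoxa cluster, the anterior genes pattern the hindbrain, pharyngeal arches and neck. Hoxa2, which sets the identity of the second pharyngeal arch, read -4.24, -3.77 and -3.44 in si-lncMGPF and -4.24, -4.05 and -4.11 in si-NC. The groups overlapped for Hoxa2, and its higher values were those of slide 2 (0.53, against -0.10 on slide 1). Hoxa3, needed for the thymus and parathyroid, read -1.11, -0.61 and -0.66 in si-lncMGPF and -0.83, -0.77 and -0.77 in si-NC. Its si-lncMGPF arrays lay on both sides of the si-NC arrays, below on slide 1 and above on slide 2. Hoxa4, a gene of the cervical vertebrae, read -3.44, -3.50 and -4.17 in si-lncMGPF and -3.45, -3.75 and -3.88 in si-NC. Hoxa6 read -4.36, -4.07 and -4.90 in si-lncMGPF, the last not above background, and -4.75, -4.19 and -4.04 in si-NC. For Hoxa3, Hoxa4 and Hoxa6 the fitted log2 change lay between -0.12 and -0.0027.

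The more posterior Hoxa genes are known from the trunk, limbs, blood and uterus. Hoxa7, a gene of thoracic segments and blood progenitors, read 0.77, 0.97 and 0.71 in si-lncMGPF, against 1.17, 1.06 and 1.11 in si-NC. All its si-lncMGPF arrays lay below the si-NC arrays, with differences of -0.35 on slide 1 and -0.28 on slide 2 (log2 change -0.30, SE 0.10, adjusted p = 0.258, limma). Hoxa9, which acts in blood stem cells and in the muscle stem cells of aged mice, read 2.44, 2.80 and 2.44 in si-lncMGPF and 1.87, 2.37 and 2.21 in si-NC. The groups did not overlap (log2 change 0.41, SE 0.17, adjusted p = 0.306, limma). Its other probe, also measured on all arrays, read -2.72, -2.71 and -2.68 against -2.83, -2.70 and -2.73, with overlap and a log2 change of 0.05 (SE 0.08), so the probes of Hoxa9 differed in size. Hoxa10, a gene of the upper leg and the uterus, read -1.65, -2.25 and -1.92 in si-lncMGPF and -2.06, -2.50 and -2.17 in si-NC. Its log2 change of 0.30 (SE 0.19) came with overlapping groups, and the slide 1 array was the highest.

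Hoxa11, which patterns the limb's middle segment, was read by 10 spots on each array, whose coefficient of variation was 4.11% to 5.75%. It read 0.64, 1.05 and 0.91 in si-lncMGPF and 0.87, 0.83 and 0.80 in si-NC. The spread among si-lncMGPF arrays (SD 0.21) exceeded that among si-NC arrays (SD 0.04) and that among spots of an array (SD at most 0.08), with replicate 1 below and replicates 2 and 3 above the si-NC arrays. The log2 change was 0.03 (SE 0.12, 95% interval -0.26 to 0.32). Hoxa11os, the antisense gene next to it, had 1.25, 1.87 and 1.74 in si-lncMGPF and 1.32, 1.40 and 1.34 in si-NC. Like Hoxa11 it was below si-NC on slide 1 and above it on slide 2 (log2 change 0.27, SE 0.17, adjusted p = 0.443).

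In the Hoxb cluster, 7 of 8 tested members had a negative log2 change, but Hoxb2, Hoxb7 and Hoxb9 among them were tested through si-NC alone, which favours that sign. Of the 5 Hoxb members measured on all arrays, 4 were negative and 1, Hoxb6, was positive. Over all tested genes 46.0% were negative, and nothing is read from the Hoxb count. After normexp background correction with an offset of 50, 5 of the 7 turned positive: Hoxb2 (0.18), Hoxb5 (0.08), Hoxb7 (0.18), Hoxb9 (0.15) and Hoxb13 (0.01). The offset shrinks changes of dim probes and was added before scaling by each array's 75th percentile. In the deposited signals that percentile was lower on slide 2 (580 and 492 intensity units, against 688 to 931 on slide 1). The percentile after normexp is not given here. Whether the offset turned these signs was not tested, and nothing is read from them. Hoxb3, an anterior gene of the hindbrain and neck, had 2 probes measured on all arrays. On 1 it read -3.001, -3.46 and -3.47 in si-lncMGPF, against -2.76, -2.65 and -2.71 in si-NC (means -3.31 ± 0.27 and -2.71 ± 0.05, SD, n = 3 each; log2 change -0.60, SE 0.14, adjusted p = 0.206, limma). After normexp its log2 change was -0.19. On the other it read -3.52, -3.01 and -3.19 against -2.94, -2.82 and -2.88 (log2 change -0.36, SE 0.14, adjusted p = 0.297, limma). Every si-lncMGPF array lay below every si-NC array on both probes. The arrays that were farthest differed: slide 2 on the first probe (-0.76, with -0.29 on slide 1) and slide 1 on the second (-0.64, with -0.22 on slide 2).

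Hoxb9, a gene of the thoracic skeleton, read -5.56, -6.21 and -6.49 in si-lncMGPF, against -4.98, -5.29 and -5.16 in si-NC. Neither slide 2 array was well above background. The fitted log2 change (-0.94, SE 0.24, adjusted p = 0.214, limma) therefore rests in part on signal without that flag and gives no fold. Normexp turned it to 0.15, and the slide 1 array, measured, differed from the si-NC mean by -0.42 and lay below the si-NC range. Hoxb2, a hindbrain gene, read -4.98, -4.95 and -4.92 in si-lncMGPF and -4.91, -4.75 and -4.65 in si-NC. Its groups narrowly did not overlap, and again neither slide 2 array was well above background. Hoxb7 read -4.42, -4.69 and -4.58 in si-lncMGPF, the last not well above background, and -4.23, -4.55 and -4.36 in si-NC, with overlap.

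Central Hoxb members and Hoxb13 overlapped between groups. Hoxb4, known for expanding blood stem cells, read -2.58, -2.34 and -2.19 in si-lncMGPF and -2.25, -2.15 and -2.32 in si-NC. Hoxb5 read -3.68, -3.87 and -3.87 in si-lncMGPF and -3.79, -3.62 and -3.59 in si-NC. Hoxb6, the cluster's member with a positive log2 change (0.06, SE 0.10), read -3.82, -3.79 and -3.60 in si-lncMGPF and -3.88, -3.69 and -3.81 in si-NC. Hoxb13 read -4.13, -3.62 and -3.64 in si-lncMGPF and -3.73, -3.51 and -3.55 in si-NC, so that its lowest array was the si-lncMGPF array on slide 1. The intervals of Hoxb4 (-0.42 to 0.17), Hoxb5 (-0.39 to 0.10), Hoxb6 (-0.19 to 0.30) and Hoxb13 (-0.58 to 0.18) held 0.

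The Hoxc cluster was measured as a run from Hoxc9 to Hoxc13 and at Hoxc4 and Hoxc6. Hoxc5 read -4.34, -4.82 and -4.55 in si-lncMGPF, against -4.03, -3.66 and -3.88 in si-NC (means -4.57 ± 0.24 and -3.86 ± 0.19, SD, n = 3 each). The groups did not overlap, but neither of its slide 2 arrays was well above background. The fitted log2 change (-0.71, SE 0.16, adjusted p = 0.19, limma) therefore rests in part on signal without that flag and gives no fold. It was -0.48 on slide 1, whose arrays were all measured, and 0.030 after normexp. Hoxc11, a gene of the sacral region and hindlimb, is a better measured case, well above background on all arrays: it read -0.56, -0.36 and -0.51 in si-lncMGPF, against -0.02, -0.16 and -0.09 in si-NC. Every si-lncMGPF array lay below every si-NC array, 1.31-fold lower in the fit (log2 change -0.39, SE 0.10, adjusted p = 0.213, limma), and the slides gave -0.47 and -0.35.

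Next to it, Hoxc12 stood on the other side. It read -2.13, -1.87 and -2.07 in si-lncMGPF, against -2.17, -2.38 and -2.74 in si-NC (log2 change 0.40, SE 0.16, adjusted p = 0.304, limma), without overlap. The nearest arrays lay close together, and without si-NC replicate 3, the lowest, the log2 change of Hoxc12 was 0.25. Hoxc13 read -1.20, -1.31 and -1.25 in si-lncMGPF and -1.03, -1.14 and -1.09 in si-NC, without overlap (log2 change -0.17, SE 0.08, adjusted p = 0.37, limma). Hoxc10, which marks lumbar motor neurons and the hindlimb, read 0.16, 0.15 and 0.23 in si-lncMGPF and 0.20, 0.29 and 0.33 in si-NC, with overlap and a narrow interval (-0.29 to 0.11).

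Hoxc9, a thoracic gene, read 0.35, 0.93 and 0.80 in si-lncMGPF and 0.38, 0.44 and 0.45 in si-NC. The slide 1 array was below the si-NC arrays and both slide 2 arrays above them (-0.07 and 0.44). Hoxc4 read 0.70, 0.92 and 0.97 in si-lncMGPF and 0.89, 0.89 and 0.80 in si-NC. Hoxc6, a gene of the upper thorax, read 1.03, 1.37 and 1.33 in si-lncMGPF and 1.19, 1.39 and 1.33 in si-NC. Both overlapped, with log2 changes of 0.0025 (SE 0.10) and -0.06 (SE 0.12).

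**Figure D3:**
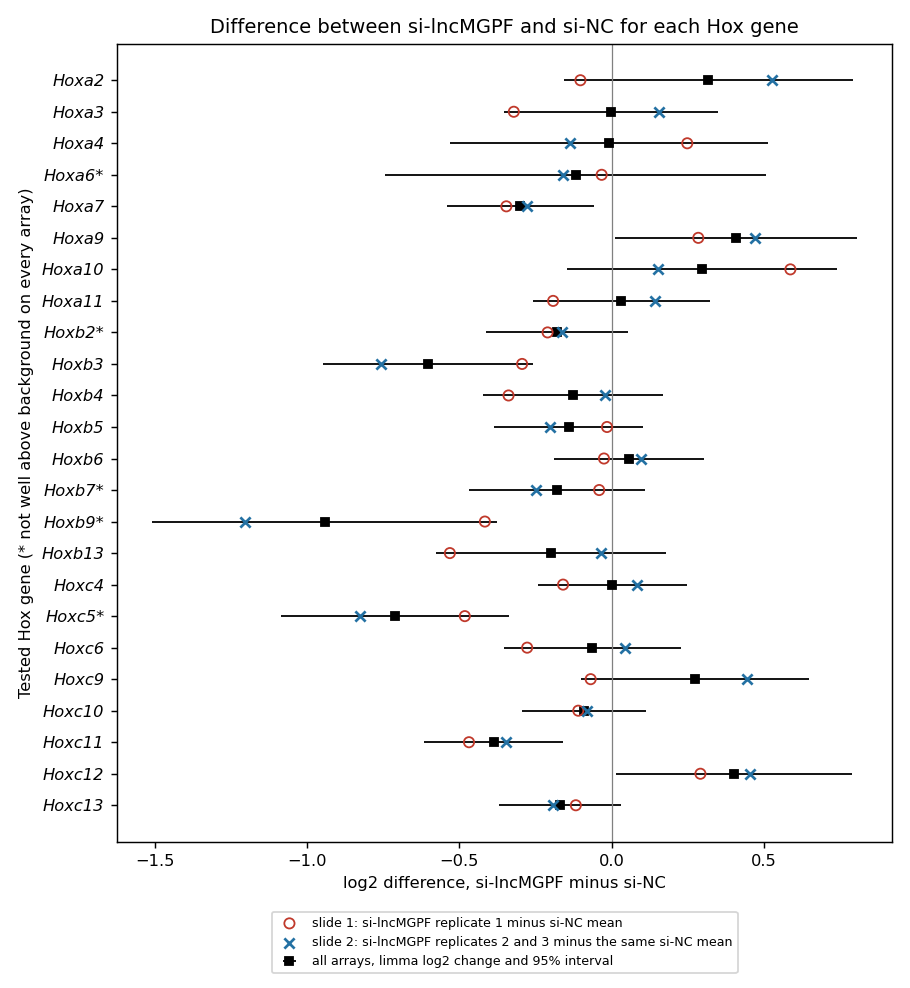
Black squares give the fitted log2 difference, si-lncMGPF minus si-NC, with its 95% interval for 24 of the 25 tested Hox genes, red circles the slide 1 difference and blue crosses the slide 2 difference against the same si-NC arrays. The intervals of 7 genes exclude 0 before adjustment, and the slide differences of Hoxa7 (-0.35 and -0.28) and Hoxc11 (-0.47 and -0.35) lie close together (slides 1 and 2).

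Under 21 settings of the processing, the main one included, Hoxa7, Hoxb3, Hoxc10, Hoxc11 and Hoxc13 were lower and Hoxa9, Hoxa10 and Hoxc12 higher in si-lncMGPF in each. Some settings cannot alter these log2 changes: other filters on dim probes, a trend and robust prior, and the authors' series values. The number of settings with the same sign is therefore no measure of robustness. A Hox gene passed the threshold in 2 of the 21 settings. Once si-lncMGPF replicate 1 was left out, so that each slide held a group of its own, 6 passed: Hoxa2 (log2 change 0.53) and Hoxc9 (0.44) higher, and Hoxb3 (-0.76), Hoxb9 (-1.21), Hoxc5 (-0.83) and Hoxc11 (-0.35) lower. In that setting 14.7% of all tested genes passed, and the effects of slide and siRNA cannot be told apart. With array weights 13 passed, against 52.1% of all tested genes; these weights ran from 0.109 for si-lncMGPF replicate 1 to 9.98 for si-NC replicate 3. With slide as a fixed block 0 Hox genes and 0.0631% of all tested genes passed, and on slide 1 alone 0 and 0.00701%.

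Hox proteins bind DNA with partners of the TALE homeodomain family. All 11 TALE genes listed were tested and 10 were measured on all arrays, with 0 past the threshold and a median log2 change of 0.01 (-0.15 on slide 1 and 0.08 on slide 2). Pbx2 read 0.52, 0.74 and 0.79 in si-lncMGPF and 0.52, 0.50 and 0.51 in si-NC, and Pbx3 read 0.02, 0.37 and 0.34 against 0.41, 0.48 and 0.43. Each had no overlap at full precision, and neither passed (adjusted p = 0.417 and 0.44, limma). Pbx4 had a log2 change of 0.13 (SE 0.11).

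Of 30 Polycomb genes, which keep Hox clusters silent, 30 were tested and 0 passed (median 0.05, with -0.13 on slide 1 and 0.10 on slide 2). Cbx7, a subunit that reads the repressive histone mark, read -1.38, -3.28 and -3.50 in si-lncMGPF, against -0.98, -0.90 and -0.98 in si-NC. The slide 2 arrays held nearly all of that difference (-2.43, with -0.42 on slide 1; log2 change -1.76, SE 0.53, adjusted p = 0.236, limma), and it passed without si-lncMGPF replicate 1. Ring1, a catalytic subunit, had -0.33 (SE 0.09, adjusted p = 0.217) and Rbbp4, a histone chaperone, 0.26 (SE 0.09, adjusted p = 0.275). Of 15 trithorax and related genes tested, which keep Hox genes active, 0 passed (median -0.04, with -0.13 on slide 1 and 0.0087 on slide 2). Kmt2a, also on that list, was matched by no probe and is not covered. Kmt2d, a histone H3 methyltransferase, had -0.55 on its brightest probe (SE 0.11, adjusted p = 0.175) and -0.18 on another. Dot1l had -0.40 (SE 0.09, adjusted p = 0.199) and the demethylase gene Kdm6b 0.13.

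Retinoic acid turns on anterior Hox genes in embryos. Of 16 tested genes of its synthesis, binding and receptors, 0 passed, with a median of -0.01 (-0.17 on slide 1 and 0.06 on slide 2), 8 positive and 8 negative. Dhrs3, which returns retinaldehyde to retinol, read 0.62, 0.82 and 0.69 in si-lncMGPF, against 1.48, 1.70 and 1.55 in si-NC. The groups lay far apart on both slides (-0.96 and -0.82), with a log2 change of -0.87 (SE 0.10, adjusted p = 0.0672, limma), the lowest adjusted p in these lists. Over the other settings its adjusted p ran from 0.00050 to 0.576, and it passed under 6 of them, among them without si-lncMGPF replicate 1 (change -0.82). Crabp1, a retinoic acid carrier, had 0.51 (SE 0.13, adjusted p = 0.214).

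Of 9 tested Cdx and other cluster regulators 0 passed (median -0.17, with -0.24 on slide 1 and -0.11 on slide 2). Among them Gdf11, a signal that sets the posterior Hox boundary, had -0.26 (SE 0.08), its receptor gene Tgfbr1 -0.35 (SE 0.09) and Cnot1 -0.20 (SE 0.11). Of 17 tested genes flanking the clusters 0 passed (median 0.06, with 0.03 on slide 1 and 0.08 on slide 2, 13 positive and 4 negative). Skap1, beside Hoxb, was above background on 0 of 3 si-lncMGPF arrays (-5.91, -5.63 and -5.57) and on 3 of 3 si-NC arrays (-5.07, -5.14 and -4.73), so its difference has no measured size. Skap2, beside Hoxa, had 0.27 (SE 0.09) and Ttll6, near Hoxb, 0.48 (SE 0.13). Of 28 tested transcription factors of other positional programmes, out of 48 on the array, 0 passed (median -0.07, with -0.02 on slide 1 and -0.10 on slide 2). Msx1 of the limb bud had 0.30 (SE 0.09), Prrx2 of limb mesenchyme -0.32 (SE 0.11) and Tbx4, the hindlimb T-box gene, -0.30 (SE 0.10). Of 21 noncoding genes listed for the Hox clusters, Hoxa11os and Hoxd3os1 were matched by accession, and Hoxd3os1 was above background on 0 arrays.

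**Figure D4:**
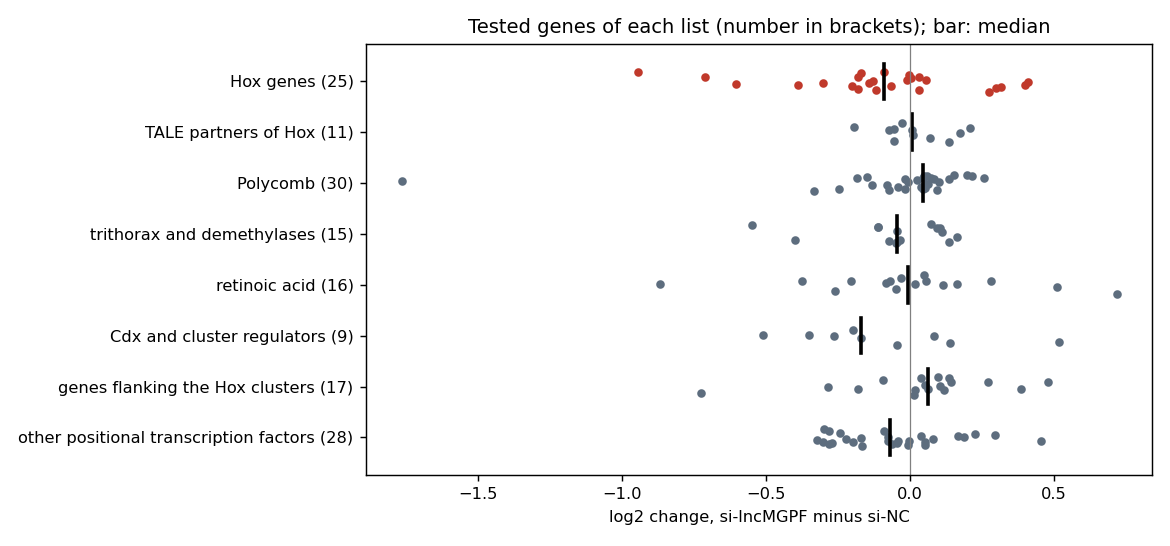
Points are the log2 changes, si-lncMGPF minus si-NC, of the tested genes of each list with more than 1 tested gene, with the Hox genes in red at the top and a bar at each median. The medians lie between -0.17 and 0.06, and 0 genes in these lists passed the threshold.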

How the data were processed

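Total RNA of 3 si-lncMGPF and 3 si-NC samples was labelled with Cy3, per the labels. Intensity values in the deposited scanner tables were background-subtracted and detrended with Feature Extraction 11.0.1.1, per the file headers, and the authors' series table equalled them at 44397 of 44397 spots. The flags of signal above background are Feature Extraction's, per the file headers.

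Spots marked as outliers were dropped, log2 signals were set against each array's 75th percentile, and spots of a probe were averaged. This scaling hides any shift shared by most transcripts. Accessions were matched, without versions, to a RefSeq table of GRCm38.p6, while the array design names mm9, so the table served for names, and the printed upstream sequences are RefSeq's own in that build; it named 27234 of 39429 probes. Each gene was read by its brightest tested probe on average, and levels of different probes were not compared. The comparison of si-lncMGPF with si-NC used limma 3.58.1 (R 4.3.3) over 24661 probes (lmFit and eBayes, 95% intervals, Benjamini-Hochberg adjustment). The code was tested on simulated data. Near-identical homeobox sequences between paralogues make cross-hybridisation possible, which was not tested.

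Hox members and the 8 other gene lists were chosen with earlier results of these data known. The naming rule covered all Hox genes, Hoxd genes mostly by their range, and in each list genes past the threshold and the 3 with the smallest p; 2 genes it names are not reported here. Normexp ran on median spot signals because mean spot signals were not among the columns used here. The number of arrays limits the precision.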

Additional observations from a re-analysis of the deposited data

How the results depend on the processing

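The number of probes called over all tested probes was 26; it was 6 after quantile normalization, 8 after normexp, 0 with no filter on dim probes (5277 at an unadjusted p below 0.05), 13394 with array weights, 10 with slide as a fixed block and 1 on slide 1 alone, and 0 to 4105 when 1 array was left out. Same-numbered samples deviated from their group means with correlations of 0.185, 0.318 and -0.0582. The si-NC sample closest to a si-lncMGPF sample bore the same number for replicates 1 and 2 but not for replicate 3. As slide differs among the si-lncMGPF arrays, these values cannot settle whether samples were paired. With the replicate number as a block the count of probes was 0 (4430 at an unadjusted p below 0.05), and 0 Hox genes passed. The Hox count was 13 with array weights and 0 to 6 when 1 array was left out, and 0 under the other settings. The Hox median log2 change was 0.054 after normexp, -0.0057 for probes measured on all 6 arrays, and -0.12 to -0.035 when 1 array was left out. In the other lists 1 gene, Dhrs3, passed after cyclic loess, with the filter on all 6 arrays, with a trend and robust prior and with the mean of a gene's probes, 67 with array weights and 0 to 16 when 1 array was left out. After normexp the log2 changes of Hoxb9 (0.15), Hoxc5 (0.030) and Skap1 (0.15) turned positive. As described for the Hoxb cluster, a fixed offset shrinks changes of dim probes. What turned these signs was not tested, and nothing is read from them. Hox genes above background on every array of si-lncMGPF and si-NC numbered 28 and 30 by the flag for a positive and significant signal, 22 and 26 when 2 of 3 arrays sufficed, and 29 and 30 against the 95th percentile of negative control spots. Signal near background limits Hoxa6, Hoxb2, Hoxb7, Hoxb9 and Hoxc5.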
